A study of Mus musculus with 6 samples.

Results

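The HDL remodelling enzymes, plasma lipases, lipid transporters and HDL receptor of the fetal liver are described here through 8 genes, Lcat, Lipc, Lipg, Lpl, Pltp, Scarb1, Abca1 and Abcg1. A gene was represented by every probe set that the array annotation assigns to its symbol alone. This gave 16 probe sets for 7 of the 8 genes, out of 45037 probe sets and 18193 genes tested. Lipc, which encodes hepatic lipase, had no such probe set and was not analysed here.

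High-density lipoprotein, HDL, carries cholesterol from tissues to the liver. The transporters ABCA1 and ABCG1 pass cellular cholesterol and phospholipid to apolipoprotein A-I and to HDL, LCAT esterifies that cholesterol, PLTP moves phospholipid between particles, and the receptor SR-BI, encoded by Scarb1, takes cholesteryl ester up into hepatocytes. Lipoprotein lipase (Lpl), hepatic lipase (Lipc) and endothelial lipase (Lipg) are related enzymes that bind to the vessel wall and hydrolyse lipoprotein triglyceride or phospholipid. The liver of the fetus and newborn rodent makes lipoprotein lipase, and synthesis in the adult hepatocyte is low.

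Total RNA of whole livers from mouse embryos at E18.5 was profiled on Affymetrix arrays, with 3 null and 3 control arrays. Null livers carried 2 loxP-flanked Hnf4 alleles and the AlfpCre transgene, and control livers carried 1 flanked allele, 1 unflanked allele and the same transgene, so Cre and at least 1 flanked allele were shared by all 6. The gene Hnf4a encodes HNF4 alpha, a nuclear receptor of hepatocytes, and AlfpCre drives recombination from albumin and alpha-fetoprotein regulatory elements, that is in the hepatocyte lineage, while the blood-forming, endothelial and mesenchymal cells of the organ are outside its target. Arrays are called by group and title number. Nothing in the labels says whether livers shared a litter, and p-values reflect array-to-array spread alone.

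Array medians lay between 91.8 and 99.5 on the deposited linear intensity scale. Hnf4a, the targeted gene, read 1778, 1562 and 2778 in Null_61, Null_1191 and Null_1195, against 2607, 2817 and 2877 in Control_8, Control_1192 and Control_1193 in its brightest probe set, and the difference missed the threshold (adjusted p = 0.194, limma). It passed without Null_1195 (0.00589) and with the 4 Hnf4a probe sets averaged (0.0370), and 2 of the other 3 probe sets fell (adjusted p = 0.0434 and 0.0488, limma). Null_1195 lay inside the control range in the brightest probe set, while in the 3 others all null arrays were below all control arrays, and the sources used here do not place the probes relative to the flanked segment. Control_8 and Null_61, which have lower title numbers, stood apart from the other arrays on the second principal component (22.4% of the variance), and the labels do not call this a batch. The 5′ control probe set for 18S ribosomal RNA read 33.5 in Null_61 and 42.1 in Control_8, against 449 to 616 in the other arrays. Null_61 also had the lowest array weight, 0.39. What sets these arrays apart was not tested. Xist and the Y-linked Eif2s3y read Null_1191, Null_1195 and Control_8 as female and the others as male. Of 8 measured hepatocyte markers 6 fell and 0 rose, where 7.85% of all genes fell and 1.56% rose. Their median log2 change was -0.62, and their summed intensities were 47981 to 50208 in null and 69546 to 70567 in control arrays. Apoa1 averaged 3124 in null and 11828 in control livers, Fgb 5653 in null and 11081 in control livers, and Ttr 7593 in null and 10369 in control livers. The uncalled markers were Afp, at 11463 in null and 11969 in control livers, and Alb, at 10651 in null and 10532 in control livers. The highest value of any array was 12608. Afp lay near it, and Alb and the control means of Apoa1, Fgb and Ttr were also high on this scale. Whether changes are compressed at such levels was not tested. The number of markers lower was 2 without any single control array or with quantile normalization, and 3 with embryo sex as a term or without the intensity trend. Their part in the changes of the HDL and lipase genes was not tested.

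Lcat, Abca1, Scarb1 and Lpl fell in the null livers, and Lipg, Pltp and Abcg1 did not pass the test. That is 4 of 7 measured genes lower and 0 higher at an adjusted p under 0.05 (limma with Benjamini-Hochberg adjustment over all probe sets), where 7.85% of all genes were lower and 1.56% higher. At an unadjusted p under 0.05 the number higher was also 0. The median log2 change of the 7 genes was -0.86, against 0.01 for all genes. A log2 change is the null mean minus the control mean of log2(intensity + 32). The added 32 shrinks the changes of dim probe sets, and folds are left out if either group averaged under 99.5. By probe set, 8 of 16 were lower, against 5.55% of all probe sets. In 4 of the 7 measured genes, the called ones, the 3 null arrays lay below the 3 control arrays, as they did in 17.9% of all genes. This order and the calls rest on the same values, so the order is no separate support. In whole livers, fewer hepatocytes and less RNA per hepatocyte cannot be told apart.

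**Figure D1:**
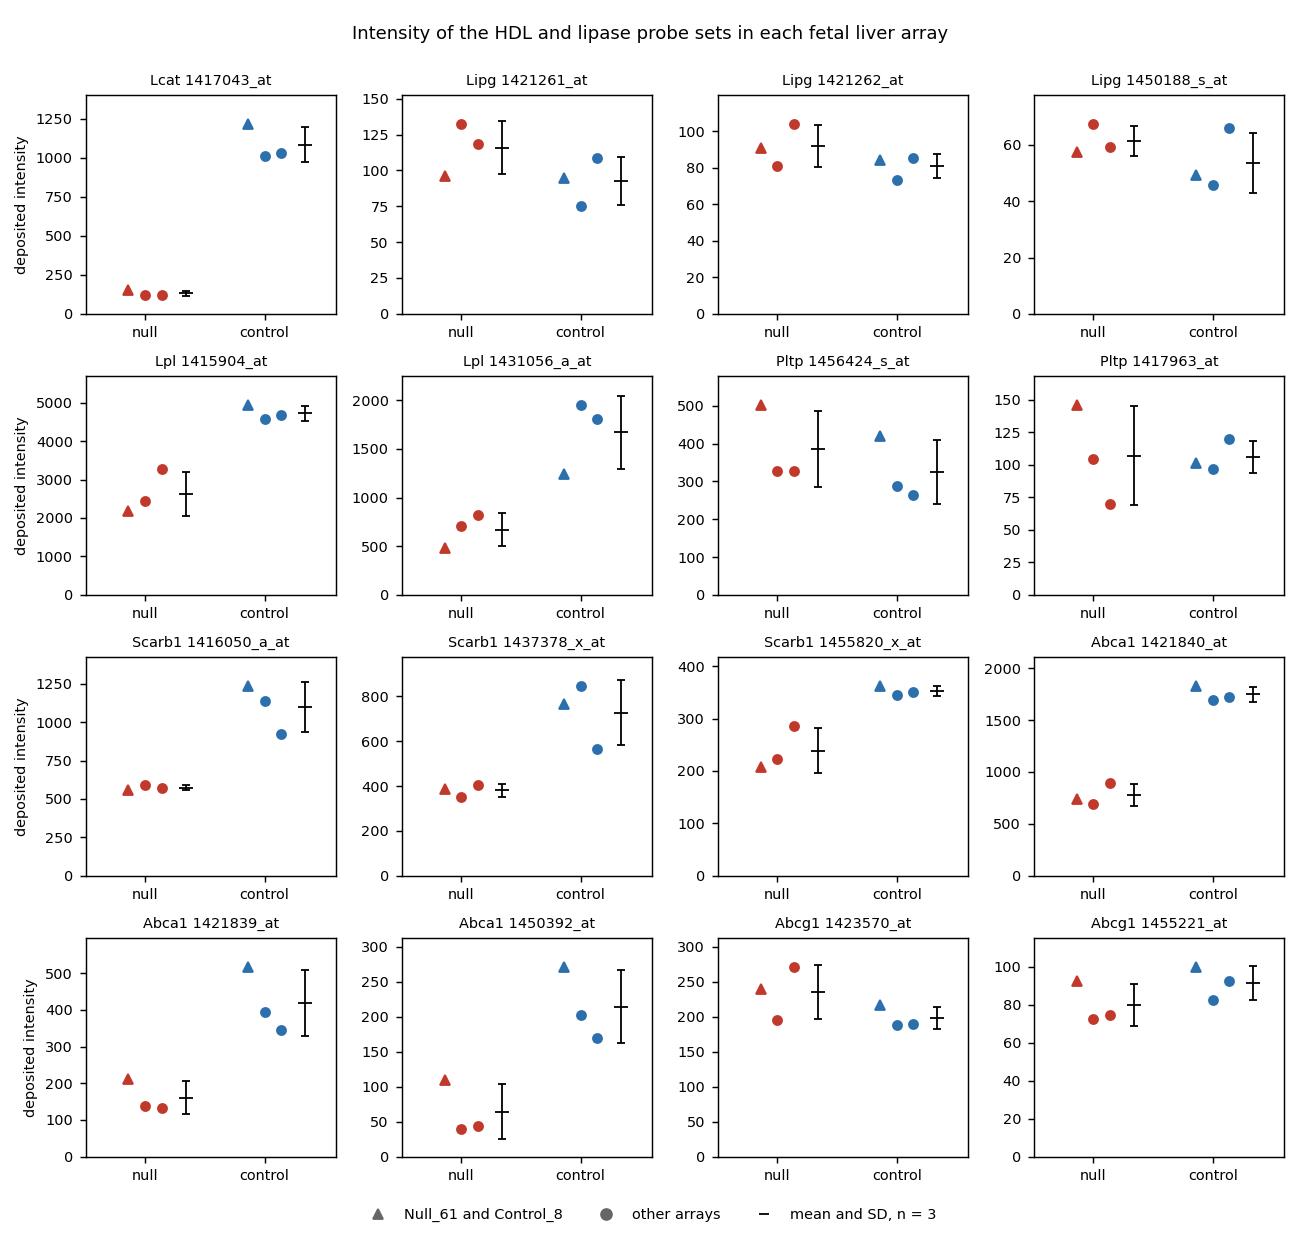
Deposited intensity (linear axis from 0) of the 16 probe sets in each array, with null arrays left of control arrays, triangles for Null_61 and Control_8, and black marks for the mean and SD of 3 arrays. All 3 null arrays lie below all 3 control arrays in the 9 probe sets of Lcat, Lpl, Scarb1 and Abca1. The groups overlap in the 7 probe sets of Lipg, Pltp and Abcg1. Null arrays lay below control arrays in 17.9% of all genes, and the share over all probe sets was not counted.

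Promoter sequence was available in the RefSeq table (build GRCm38.p6) for 4 of the 8 genes, Lcat, Abca1, Pltp and Lipc. The 250 bases before the annotated start are shown for Lcat and Abca1, the called genes among them. They read 5′ to 3′ on the minus strand, at chr8:105943403-105943652 for Lcat and at chr4:53159896-53160145 for Abca1, with motif matches in capitals.
Lcat: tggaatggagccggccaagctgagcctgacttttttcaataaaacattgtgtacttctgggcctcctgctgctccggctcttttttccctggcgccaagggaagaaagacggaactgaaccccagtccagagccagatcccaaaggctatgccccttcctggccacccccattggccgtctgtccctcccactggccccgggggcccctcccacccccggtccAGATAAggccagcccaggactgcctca
Abca1: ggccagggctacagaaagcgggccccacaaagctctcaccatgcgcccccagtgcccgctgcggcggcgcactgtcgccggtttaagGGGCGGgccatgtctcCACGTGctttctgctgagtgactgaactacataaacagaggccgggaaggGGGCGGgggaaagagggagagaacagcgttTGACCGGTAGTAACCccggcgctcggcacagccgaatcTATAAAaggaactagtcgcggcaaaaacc
Both strands were searched for 7 motifs. Neither window held the DR1 repeat, searched as 2 copies of GGNCA with 2 bases between them and the kind of repeat that HNF4 alpha binds, or the HNF4-type site CAAAGTCCA, which occur in 1.75% and 0.384% of the 32851 promoter windows of the same length. The Abca1 window held the DR4 repeat, searched as 2 copies of GGTNA with 5 bases between them, on the reverse strand, 67 to 53 bases before the start, and 0.621% of windows hold a match. DR4 repeats are the sites of LXR, the oxysterol receptor known to activate Abca1. It also held the E-box CACGTG (6.02% of windows), a pair of GC boxes GGGCGG (32.7%) and the TATA box TATAAA 29 to 24 bases before the start (12.4%). The Lcat window held a GATA site, AGATAA, 27 to 22 bases before the start (9.99%), and none of the other 6 motifs. No match overlaps another, and the matches are descriptions of the letters in these windows.

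Lcat, which esterifies cholesterol on HDL and is made almost entirely by hepatocytes, had the largest change of the 7 genes. Its single probe set, 1417043_at, read 151, 123 and 123 in Null_61, Null_1191 and Null_1195, against 1217, 1010.1 and 1027 in Control_8, Control_1192 and Control_1193. The null arrays lay close together and far below every control array. Null livers averaged 132 ± 16.0 and control livers 1085 ± 115 (SD, n = 3 each), so the null level was 12.2% of the control level. The log2 change was -2.76 with a standard error of 0.13 (95% interval -3.06 to -2.47, adjusted p = 3.48e-06 by limma), a 6.79-fold lower signal and the 144th largest fall among the 18193 genes. The change was -2.77 between Null_61 and Control_8 and -2.76 among the arrays with higher numbers.

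Lpl encodes lipoprotein lipase, the triglyceride hydrolase of capillary walls. Its brighter probe set, 1415904_at, read 2179, 2432 and 3280.1 in Null_61, Null_1191 and Null_1195, against 4946, 4567 and 4675 in Control_8, Control_1192 and Control_1193. The control arrays differed little and the null arrays were spread, with Null_1195 highest. Means were 2631 ± 576 in null and 4729 ± 195 in control livers (SD, n = 3 each), so the log2 change was -0.86, standard error 0.14 (adjusted p = 0.00756, limma), which is a 1.81-fold fall. The other probe set, 1431056_a_at, whose probes are shared by alternative transcripts of the gene, read 482, 708 and 821 in the null arrays, against 1243, 1953 and 1809.9 in the control arrays in the same order. Its log2 change was -1.28 with a standard error of 0.22 (adjusted p = 0.00856, limma), a call that was lost without Control_1192 (adjusted p = 0.0535). Control_8 was the highest control array in the first Lpl probe set and the lowest in the second.

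Lipg encodes endothelial lipase, a phospholipase that acts mainly on HDL. All 3 of its probe sets were dim, with array values from 45.9 to 133, near or below the array medians. The brightest, 1421261_at, read 96.3, 133 and 119 in Null_61, Null_1191 and Null_1195, against 94.6, 75.3 and 109 in Control_8, Control_1192 and Control_1193. The groups overlapped, and the log2 change was 0.24 with a 95% interval of -0.10 to 0.59 (adjusted p = 0.394, limma). The 2 other probe sets had log2 changes of 0.13 each. The intervals bound the size of a change and do not show that the Lipg message was equal in both groups.

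Pltp, the phospholipid transfer protein that enlarges HDL particles, had overlapping groups in both probe sets. Probe set 1456424_s_at read 503, 327 and 328 in Null_61, Null_1191 and Null_1195, against 421, 288 and 264 in Control_8, Control_1192 and Control_1193. Null_61 and Control_8 were the highest arrays of their groups. The log2 change was 0.23 with a 95% interval of -0.25 to 0.71 (adjusted p = 0.580, limma), and it was 0.24 between Null_61 and Control_8 and 0.22 among the arrays with higher numbers. Probe set 1417963_at read 69.9 to 146 in the null and 96.6 to 119.8 in the control arrays. Its log2 change of -0.02 took either sign between alternatives and ran from -0.24 to 0.18.

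Abca1, the transporter that loads lipid onto apolipoprotein A-I and so starts HDL assembly, fell in all 3 probe sets. The brightest, 1421840_at, read 744, 692 and 895 in Null_61, Null_1191 and Null_1195, against 1831, 1698 and 1722 in Control_8, Control_1192 and Control_1193. The groups were well apart, with Null_1195 the highest null array. Means were 777 ± 106 in null and 1750.0 ± 71.0 in control livers (SD, n = 3 each). The log2 change was -1.15 with a standard error of 0.12 (adjusted p = 0.000473, limma), a 2.21-fold fall.
The other Abca1 probe sets were dimmer and moved the same way. Probe set 1421839_at read 212, 138 and 132 in the null arrays, against 517, 394 and 344 in the control arrays, for a log2 change of -1.23 (standard error 0.20, adjusted p = 0.00572, limma). Probe set 1450392_at read 110.3, 39.8 and 43.4 in the null arrays, against 271, 202 and 169 in the control arrays, for a log2 change of -1.40 (standard error 0.27, adjusted p = 0.0146, limma). In both, Null_61 and Control_8 were the highest arrays of their groups. The call of 1450392_at was lost without Null_1191, Null_1195, Control_8 or Control_1192 (adjusted p = 0.0662, 0.0591, 0.0584 and 0.0654).

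Abcg1, which passes cholesterol to HDL particles that already hold lipid and is best known in macrophages, had overlapping groups. Probe set 1423570_at read 239, 195 and 271 in Null_61, Null_1191 and Null_1195, against 216, 189 and 189 in Control_8, Control_1192 and Control_1193. The lowest null array lay between the control arrays. The log2 change was 0.21 with a 95% interval of -0.11 to 0.53 (adjusted p = 0.436, limma). Probe set 1455221_at was dim, at 72.5 to 92.3 in the null and 82.3 to 99.98 in the control arrays, with a log2 change of -0.15 (95% interval -0.44 to 0.15).

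Scarb1 encodes SR-BI, the receptor that takes cholesteryl ester from HDL without taking up the particle. The brightest probe set, 1416050_a_at, read 559, 591 and 570.0 in Null_61, Null_1191 and Null_1195, against 1238, 1135 and 920.5 in Control_8, Control_1192 and Control_1193. Here the null arrays were nearly equal and the control arrays spread, the reverse of the brighter Lpl probe set. Means were 573 ± 15.9 in null and 1098 ± 162 in control livers (SD, n = 3 each), so the log2 change was -0.89, standard error 0.13 (adjusted p = 0.00330, limma), which is a 1.85-fold fall.
The 2 other Scarb1 probe sets end in _x_at, a suffix for probes that may also match other sequences. Probe set 1437378_x_at read 386, 349 and 407 in the null arrays, against 767, 848 and 566 in the control arrays, a log2 change of -0.86 (adjusted p = 0.0115, limma). That call was lost without Null_1191, Control_8 or Control_1192 (adjusted p = 0.0575, 0.0540 and 0.0611). Probe set 1455820_x_at read 207, 223 and 287 in the null arrays, against 362, 345 and 350.0 in the control arrays, and did not pass the test (log2 change -0.52, adjusted p = 0.0588, limma). It passed in 5 alternatives, with array weights (adjusted p = 0.0276), centred array medians (0.0478), the filter on level (0.0422) or the number run as a block (0.0268), and without Null_1195 (0.0243).

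**Figure D2:**
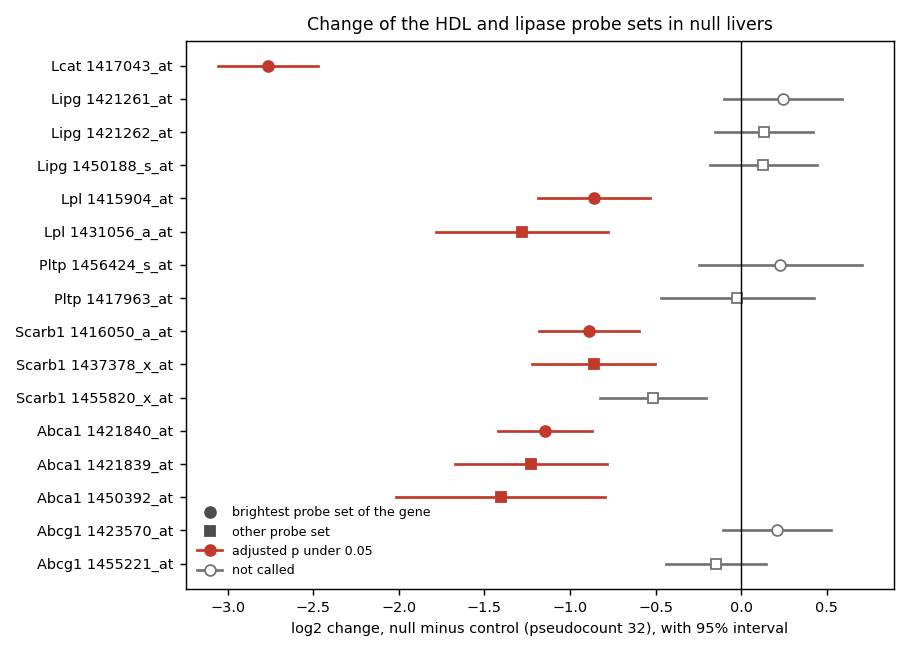
Log2 change, null minus control, of the 16 probe sets with 95% intervals (horizontal axis, pseudocount 32), with circles for the brightest probe set of a gene, squares for its other probe sets and filled red marks for an adjusted p under 0.05. The intervals of the 9 probe sets of Lcat, Lpl, Scarb1 and Abca1 lie below 0, and those of the 7 probe sets of Lipg, Pltp and Abcg1 include 0.

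The 4 falls differed in how evenly the null livers shared them. Relative to the control mean, Lcat stood at -2.60, -2.84 and -2.84 in Null_61, Null_1191 and Null_1195 on the log2 scale. Scarb1 stood at -0.92, -0.85 and -0.90, and Abca1 at -1.20, -1.30 and -0.94. Lpl stood at -1.11, -0.95 and -0.52. In the brightest Hnf4a probe set Null_1195 had the highest signal of the null arrays. It was nearest to the controls for the brightest probe sets of Lpl and Abca1, and not for those of Lcat or Scarb1. The order depended on the probe set. Null_1195 was also nearest in the other probe sets of Lpl (821) and Scarb1 (407 and 287). Null_61 was nearest in the other Abca1 probe sets (212 and 110.3). For Hnf4a, Null_1195 was highest in 1421983_s_at (834), and Null_61 in 1427000_at (1493) and 1450447_at (414). Whether these values are linked was not tested. Between Null_61 and Control_8 the changes were -1.26 for Abca1, -1.10 for Scarb1 and -1.17 for Lpl, and among the arrays with higher numbers they were -1.09, -0.78 and -0.70.

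The calls of all 4 genes in their brightest probe sets held in each of 17 alternatives, which changed the scaling, pseudocount, filter, variance model, weights, probe set summary, covariates or left out an array. The highest adjusted p was 9.49e-05 for Lcat, 0.00499 for Abca1, 0.0274 for Scarb1 and 0.0447 for Lpl, the last without Null_1191. Lipg, Pltp and Abcg1 passed in none of the 17.

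**Figure D3:**
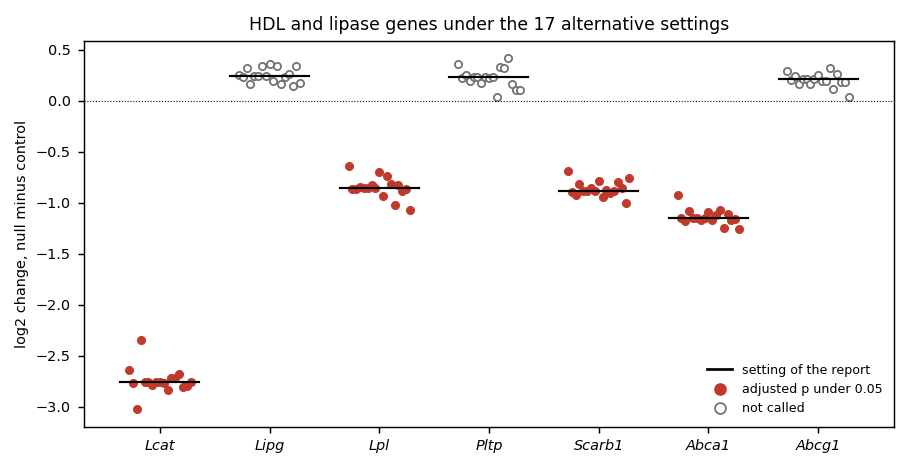
Log2 change, null minus control, of the 7 measured genes under the setting of the report (black bars) and under 17 alternatives (points, red where the adjusted p is under 0.05). Lcat runs from -3.03 to -2.35, Abca1 from -1.26 to -0.92, Scarb1 from -1.01 to -0.69 and Lpl from -1.07 to -0.64, while Lipg, Pltp and Abcg1 stay between 0.03 and 0.41.

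The cofactors and inhibitors that set the activity of these lipases fell in most cases. Of 7 measured genes 6 fell and 0 rose, against 7.85% and 1.56% of all genes, with a median log2 change of -2.05. Apoc2, the activator of lipoprotein lipase, averaged 279 ± 27.8 in null and 4074 ± 661 in control livers (SD, n = 3 each), a 13.1-fold fall. Apoc3, which restrains triglyceride clearance, averaged 44.7 ± 16.2 in null and 1107 ± 282 in control livers, and Angptl4, a secreted inhibitor of lipoprotein lipase, averaged 169 ± 17.4 in null and 801 ± 62.7 in control livers (its other probe set was not called). Angptl8 did not pass the test (log2 change -0.86, adjusted p = 0.241, limma).

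Genes for the folding, transport and cleavage of lipases changed less, with 3 of 10 lower (5 with array weights) and 0 higher. Their median log2 change was -0.34, and 7.85% of all genes were lower. Sort1, a sorting receptor, fell 1.999-fold and Sdc1, the syndecan that binds lipoproteins on hepatocytes, fell 2.36-fold, with 1 of 3 and 3 of 4 probe sets called. Lmf1, the chaperone that lipoprotein, hepatic and endothelial lipases need to mature, averaged 76.0 ± 15.2 in null and 129 ± 7.10 in control livers (adjusted p = 0.0360, limma). The Lmf1 call was lost without Null_1191, Null_1195, Control_8, Control_1192 or Control_1193 (adjusted p = 0.131, 0.115, 0.120, 0.139 and 0.0932), with embryo sex as a term (0.0953), with quantile normalization (0.0512) and with its probe sets averaged (0.0825). Gpihbp1, the endothelial anchor of lipoprotein lipase, averaged 169.9 in null and 159 in control livers and did not pass the test.

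Of 17 measured genes for proteins carried on HDL, 10 fell and 0 rose, with a median log2 change of -1.34. Apoa2, the second most abundant HDL apolipoprotein, averaged 1979 ± 489 in null and 10429 ± 39.1 in control livers (adjusted p = 2.95e-05, limma). Its control mean was as high on this scale as that of Ttr (10369), and whether the change is compressed there was not tested. Apoc1, Apoc2 and Apoc3, which fell in the cofactor list, are counted here too. Among the HDL receptor adaptor and other lipoprotein receptors 2 of 10 fell, against 7.85% of all genes, 0 rose and the median was -0.05. The number lower was 1 without Null_1195, Control_1192 or Control_1193, and 1 fell and 1 rose with probe sets averaged. Pdzk1, the scaffold that keeps SR-BI on the hepatocyte surface, averaged 175 ± 117 in null and 656 ± 118 in control livers (log2 change -1.89, adjusted p = 0.0171, limma). Its call was lost without Null_1195, Control_1192 or Control_1193 (adjusted p = 0.0554, 0.0900 and 0.0704). Lsr, a hepatic lipoprotein receptor, fell 1.72-fold (log2 change -0.78), but its 2 probe sets averaged together gave -0.35 with an adjusted p of 0.0549 (limma).

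Genes around LXR and sterol export had 4 falls and 0 rises among 13 measured, where 7.85% of all genes fell, with a median of -0.38. The number lower was 2 without Control_1192, and 1 gene rose with quantile normalization or without Null_61. Lipa, the lysosomal acid lipase that frees cholesterol from esters, averaged 274 ± 64.1 in null and 839 ± 23.8 in control livers (log2 change -1.53, adjusted p = 0.000354, limma), and all 3 of its probe sets fell. Lpcat3, a phospholipid acyltransferase known as an LXR target, fell 1.95-fold. Abcg5, a subunit of the sterol exporter of the canaliculus, averaged 28.3 ± 10.1 in null and 72.7 ± 10.04 in control livers, both dim (adjusted p = 0.0174, limma), and its call was lost without Null_1195, Control_1192 or Control_1193 (0.0586, 0.0937 and 0.0540). Nr1h3, the gene of LXR alpha, averaged 188 ± 48.7 in null and 251 ± 25.6 in control livers, with overlapping groups, and did not pass the test (adjusted p = 0.237, limma).

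**Figure D4:**
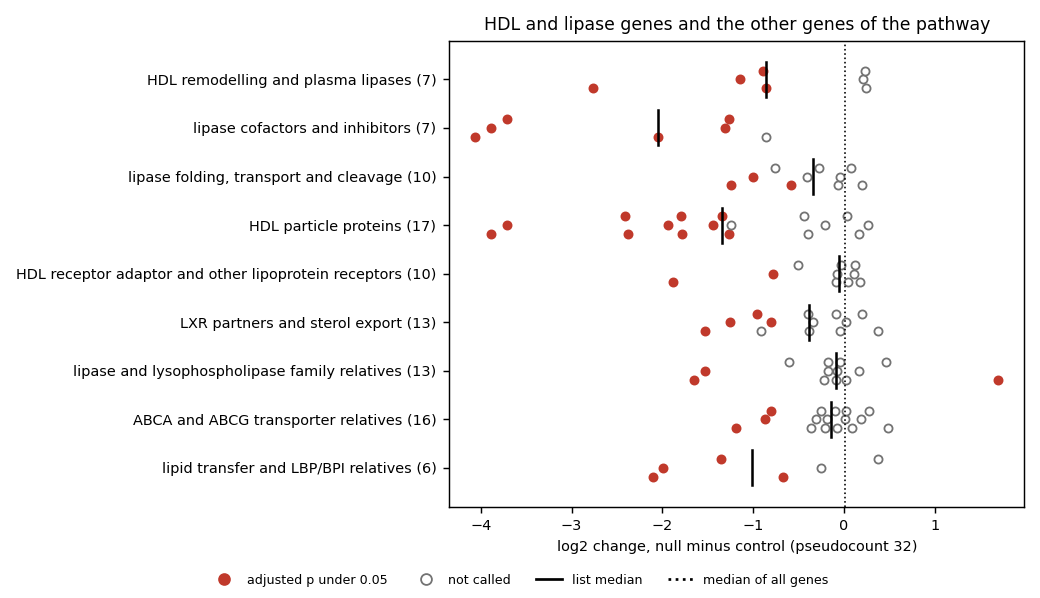
Log2 change, null minus control, of the 7 measured HDL and lipase genes and of the genes in 8 pathway lists (number measured in brackets), with red points for an adjusted p under 0.05, black bars for list medians and a dotted line for the median of all genes at 0.01. Over the 84 genes of the 8 lists counted once, 29 fell (34.5%) and 1 rose, against 7.85% and 1.56% of all genes.

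The genes most like each of the 4 in pattern were found by the root mean square difference, over the 6 arrays, of log2 values taken relative to the control mean, among 12848 genes above the array medians in at least 1 group. Nearest to Lcat were Acad11, an acyl-CoA dehydrogenase family member, and Ciart, a circadian repressor (differences of 0.12 and 0.13). Nearest to Abca1 were Aldh7a1, an aldehyde dehydrogenase of lysine breakdown, and Rassf8 (0.05 each). Nearest to Lpl were Qdpr, which regenerates tetrahydrobiopterin, and Txndc12 (0.06 and 0.07), and nearest to Scarb1 were Keg1 and Slc22a18 (0.09 each).

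Other cell types of the fetal liver also make some of these transcripts, in particular macrophages (Abca1, Abcg1, Lpl) and endothelial cells (Lipg). Of 13 macrophage and Kupffer cell markers 4 were higher and 0 lower, where 1.56% of all genes were higher and 7.85% lower. The summed intensity of these markers was 7653 to 12321 in null and 5384 to 6419 in control arrays. The number higher was 0 without Control_1192 or Control_1193 and with embryo sex as a term, 1 without Null_1191, 2 without Null_1195 or with centred array medians, 7 in the arrays with higher numbers and 8 with the number run as a block. Of 11 endothelial markers 3 were lower and 0 higher, with sums of 2079 to 2492 in null and 2784 to 3161 in control arrays, and the number lower was 1 without Null_1191 or any single control array and 5 with array weights, the number run as a block or averaged probe sets. None of 11 stellate and mesenchymal markers was called by limma, with sums of 5352 to 8372 in null and 4576 to 5594 in control arrays. At an unadjusted p under 0.05 there were 4 higher and 0 lower. The number of them higher was 1 with quantile normalization, the number run as a block or embryo sex as a term, and 2 without Null_1191. Adipocyte markers, for another major source of lipoprotein lipase, had 0 of 5 called by limma, with log2 changes from -0.67 to 0.52. At an unadjusted p under 0.05 there were 1 lower and 0 higher. The lower one was Fabp4, the brightest, at 444 in null and 697 in control livers with overlapping groups (adjusted p = 0.184, limma). Adipoq averaged 16.2 in null and 20.8 in control livers, below every array median. Of 5 megakaryocyte markers 3 were lower and 0 higher, with sums of 3534 to 4043 in null and 4996 to 7010 in control arrays. The number lower was 0 without Null_1191, Control_8 or Control_1192, and 1 with quantile normalization or embryo sex as a term. None of 7 erythroid, 8 neutrophil and granulocyte or 6 muscle markers was called by limma. In some alternatives 1 to 3 erythroid markers were higher and 1 neutrophil marker was lower. The part of these cell types in the changes of the 7 genes was not tested.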

How the data were processed

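Total RNA of E18.5 livers was extracted with a Qiagen RNeasy kit and labelled with biotin for Affymetrix arrays, per the labels. The authors deposited 1 linear intensity per probe set and array, and some intensities are below 0. The sources used here do not give how probes were summarised, corrected and scaled. Negative intensities were raised to 0 before log2(intensity + 32). Array medians on the log2 scale differed by at most 0.0877, and the deposited scaling was kept. The 64 Affymetrix control probe sets among 45101 were dropped. The platform annotation gave 1 symbol to 34945 probe sets. A gene was represented by its probe set with the highest mean log2 value.

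The null-control contrast was fitted in R 4.3.3 by limma 3.58.1 (lmFit, eBayes with an intensity trend, no covariate, two-sided), with Benjamini-Hochberg adjustment over 45037 probe sets and a threshold of 0.05. The fit was tested on simulated data with independent noise, which held no differences between arrays such as those of Null_61 and Control_8. With 3 arrays a group the smallest exact permutation p is 0.1, and that test was not used. The number of arrays limits the precision.

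Named were all HDL and lipase genes, Hnf4a, up to 3 called genes of each pathway list by adjusted p with the first in the opposite direction, and the 2 genes most like each called gene. The rule also allowed called and brightest genes of marker lists. These were used for hepatocytes, for adipocytes (Fabp4) and for pancreas and gut (Fabp2 and Prss2). The macrophage, endothelial, stellate and megakaryocyte lists are given by counts and sums, and the erythroid, neutrophil and muscle lists by counts alone. Angptl8, Apoc1, Gpihbp1, Nr1h3, Alb and Adipoq fall outside it and were chosen after their values were seen. The genes, lists and tests were chosen with earlier results of these data known. Promoter sequences are from RefSeq, build GRCm38.p6. No other HDL or lipase gene had a promoter entry. The alternatives are in the closing section.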

Additional observations from a re-analysis of the deposited data

How the results depend on the processing

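The alternatives were other scalings (quantile, centred medians), other pseudocounts (1, 100), a filter on level, a variance prior without trend, array weights, averaged probe sets, the number run as a block, the 4 arrays with higher title numbers alone, embryo sex as a term and each array left out in turn, with a change of at least 2-fold added for counts. All 7 measured HDL and lipase genes kept the direction of their brightest probe set and their side of the threshold in each of the 17 alternatives. With a change of at least 2-fold required, the number of these genes lower was 2. The log2 change of Pltp probe set 1417963_at was -0.02, and it was 0.088 with embryo sex as a term and between -0.22 and 0.18 when single arrays were left out, without a call. Over all genes, 1428 fell and 283 rose. Leaving out single arrays gave 906 to 1689 falls and 98 to 558 rises, with the lowest counts without Control_1192 and the highest without Null_61. Rises numbered 617 with quantile normalization (beside 1196 falls), 613 with array weights, 747 with the number run as a block and 170 with embryo sex as a term, and at 2-fold or more there were 683 falls and 54 rises. In the 8 pathway lists 1 gene rose, against 3 with quantile normalization and 2 with the filter on level, array weights, the number run as a block or averaged probe sets, and 1 to 2 without single arrays. The causes were not tested, except that a fold minimum keeps fewer genes by construction. No paired analysis was possible because the groups share no replicate numbers in the labels. Signals near the array medians, as for Lipg, limit the precision.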

Other observations

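Structural relatives of the HDL and lipase genes were counted in the same way. Of 13 measured relatives of the lipases 2 fell and 1 rose, against 7.85% and 1.56% of all genes, with a median log2 change of -0.09. The number higher was 2 with quantile normalization, the filter on level, array weights or the number run as a block. Pla1a, a phosphatidylserine-specific phospholipase of the same family as hepatic lipase, averaged 308 ± 81.9 in null and 1019.5 ± 25.0 in control livers (SD, n = 3 each), a 3.15-fold fall, and Lipa is counted here again. Pnliprp1, a pancreatic lipase relative, averaged 278 ± 75.7 in null and 63.6 ± 22.4 in control livers. It rose by a log2 change of 1.70 (standard error 0.23, adjusted p = 0.00205, limma), and its control mean lay below the array medians, so no fold is given. The exocrine pancreas and gut markers in the same arrays had 1 of 7 lower and 0 higher. The lower one was the gut marker Fabp2. Prss2, the brightest and a pancreas marker, averaged 1213 in null and 1111 in control livers and was not called. The relation of these markers to the Pnliprp1 rise was not tested.

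Among 16 relatives of Abca1 and Abcg1, 3 fell and 0 rose, against 7.85% and 1.56% of all genes, with a median log2 change of -0.14. The number lower was 1 without Control_1192. It was also 1 with the filter on level, which removed Abca6 and Abcg5 before the test. Abca3 averaged 262 ± 55.4 in null and 499 ± 30.8 in control livers, a 1.82-fold fall that was lost without Control_1192 (adjusted p = 0.0559, limma). Abca6 averaged 31.6 ± 8.65 in null and 113 ± 14.4 in control livers (adjusted p = 0.00134, limma), and Abcg5 is counted here again. Among lipid transfer proteins and relatives of Pltp, 4 of 6 fell and 0 rose, with a median of -1.02, and 1 rose with quantile normalization or without Null_61. Mttp, which loads lipid onto apolipoprotein B, fell 3.98-fold. Lbp, the lipopolysaccharide-binding protein and a sequence relative of Pltp, fell 2.57-fold (1 of 2 probe sets called), and Stard10, a phospholipid carrier, fell 1.59-fold.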
